A study of Mus musculus with 10 samples.

Results

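Innate immune cells recognise microbes and tissue damage through germline-encoded pattern recognition receptors, and the genes of these receptors and of the inflammasome were compared between leukaemia cells and the myeloid cells around them. The members were all rows of the deposited table whose gene name starts with Tlr, Nlr, Nod and a digit, Clec, Irak, Fpr or Naip, together with 14 named adaptors and effectors, among them Myd88, Cd14, Ly96, Pycard, Casp1, Casp4 and Card9. The rule uses names only, and it found 61 genes of 10141. Of 94 protein-coding genes of the GENCODE M21 annotation whose symbols meet the rule, 34 had no row, among them Aim2, Tlr9, Nlrc5 and Tmem173, and these are not analysed here. Clec7a has a row and carries another gene type in that annotation.

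The samples were bone marrow cells of CD45.1 mice injected through the tail vein with MLL-AF9/GFP cells, which carry the fusion oncogene MLL-AF9 of acute myeloid leukaemia and a green fluorescent protein. Marrow was taken once GFP+ cells made up 2% in the blood. The leukaemia group was sorted as GFP+ and the myeloid group as GFP-CD11b+, with 5 libraries each, and the genotype and cell type fields are identical for all 10 libraries. Both groups came from leukaemic mice, neither a group of healthy mice nor one of normal immature cells was analysed here, and the labels give neither the age of the mice nor whether the libraries came from separate mice. The p-values therefore measure the spread between these libraries, which may be technical. The protocol describes flow cytometry for both populations, whereas the design text describes magnetic sorting of the myeloid cells as CD45.2-CD11b+.

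Toll-like receptors sense microbial lipids, proteins and nucleic acids at the cell surface or in endosomes, and most of them signal through the adaptor MyD88 and kinases of the IRAK family to NF-kB. C-type lectin receptors bind sugars and lipids of fungi and mycobacteria and signal through the kinase Syk and the adaptor Card9, or carry inhibitory motifs. NOD-like receptors act in the cytosol, where some of them assemble with the adaptor ASC and caspase-1 into an inflammasome that matures interleukin-1 and opens the membrane. Formyl peptide receptors guide neutrophils to bacteria and damaged mitochondria. Neutrophils and monocytes carry most of these molecules, and many of them are acquired as the cells mature in the marrow.

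Values are normalised reads, which are reads recovered from the deposited variance-stabilised log2 values and divided by the authors' size factors. Depth over the table was 24099551 to 32247803 reads per library. After division by the size factors the libraries summed to between 22203380.4 and 22698958 normalised reads in the leukaemia group and between 32545702 and 38114511 in the myeloid group. Each direction was therefore also examined with all libraries set to an equal sum over the table, called equal-sum scaling below. Hoxa9, a gene of the fusion's programme, had 3215 ± 329 normalised reads in the leukaemia libraries and 16.0 ± 5.3 in myeloid libraries, and Itgam, the gene of the CD11b used for sorting, was 8-fold lower in leukaemia. The summed reads of 7 neutrophil markers ranged from 40256 to 44597 in leukaemia and from 1381485 to 2399949 in myeloid libraries. Among the myeloid libraries replicates 2 and 4 stood apart: the 8 markers of dendritic cells and MHC class II summed to 60657, 5375, 42799, 5533 and 39067 normalised reads in myeloid replicates 1 to 5, and to 981 to 2361 over the leukaemia libraries. Cd74, H2-Aa, H2-Ab1 and H2-Eb1 made up most of this sum. Itgax and Xcr1 were also lowest there, but Flt3 (596, 353, 447, 391 and 325) and Zbtb46 (51.3, 27.2, 28.1, 39.1 and 62.5) were not. The 5 B cell markers summed to 1904, 460, 960, 435 and 857 in myeloid replicates 1 to 5, again lowest in replicates 2 and 4. For tested members lowest in both of these libraries, and for some that were highest there, the log2 difference without them is also given.

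Most pattern recognition genes with a row in the deposited table were lower in leukaemia cells than in the myeloid cells. Of the 61 members, 46 passed the filter on low values, and 40 of these were called lower in leukaemia and 5 higher at an adjusted p under 0.05 (limma on the deposited values). Nlrp1b was not called. Over all 8079 genes tested, 50.7% were called lower and 49.1% higher, so nearly every gene tested was called in 1 direction or the other. The table held 10141 rows, against 55536 annotated genes, and how its rows were chosen is not known here. A call by itself therefore sets a member little apart from other rows, and nothing is shown for members without a row. A log2 difference of -1 or below was reached by 26 of the 46 members (56.5%), against 18.1% of all genes tested. The members' median log2 difference was -1.16, against -0.16 over all genes tested. Counts by role given below are to be read beside the same shares of 50.7% lower and 49.1% higher. Groups were apart, with no overlap of libraries, for 41 of the 46 members, against 86.8% of all genes tested. In bulk samples fewer cells that carry a gene and less RNA of it per cell cannot be told apart, and with no group of normal immature cells leukaemia and stage of maturation cannot be told apart either.

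**Figure D1:**
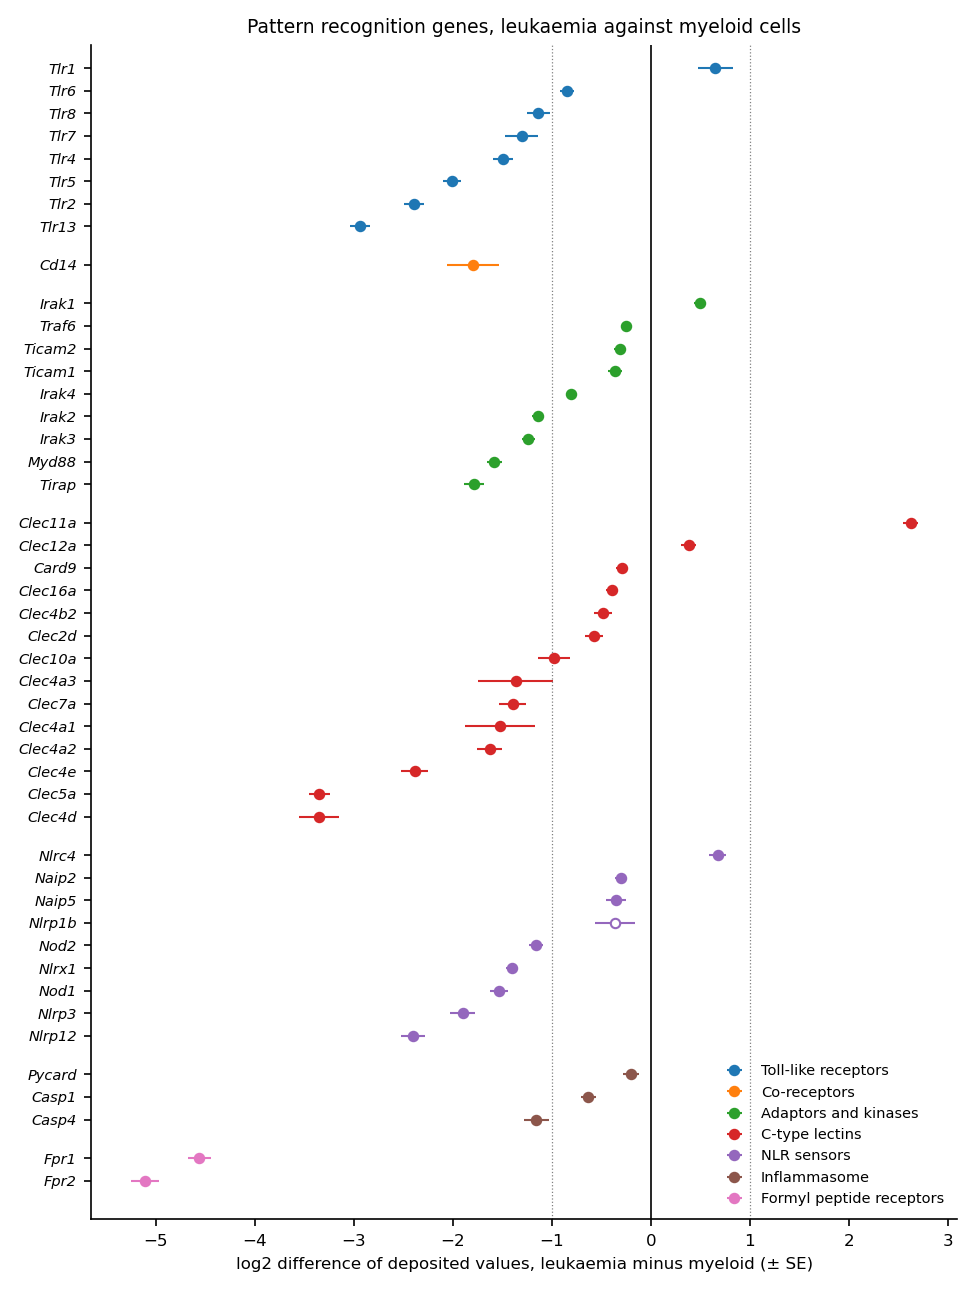
Log2 difference of the deposited values, leukaemia minus myeloid, for the 46 members that passed the filter, by role. Points are the fitted differences, bars are standard errors, the open point was not called, and dotted lines mark -1 and 1. Clec11a, Nlrc4, Tlr1, Irak1 and Clec12a lie above 0, and Fpr1 and Fpr2 lie furthest below.

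Among the Toll-like receptors, 7 of the 8 tested genes were lower in leukaemia and Tlr1 was higher. Tlr2, the receptor for bacterial lipoproteins, had 970.4, 654, 673, 561 and 616 normalised reads in leukaemia replicates 1 to 5 and 5396, 5511, 6778, 4786 and 6207 in myeloid replicates 1 to 5. Every myeloid library lay above every leukaemia library, and Tlr2 was 8.25-fold lower in leukaemia (limma log2 difference -2.39, SE 0.101, adjusted p = 1.8e-10). Tlr13, a mouse endosomal receptor for bacterial ribosomal RNA, had the most reads of the family in myeloid cells. It had 1317, 1189.96, 861, 874 and 798 normalised reads in the leukaemia libraries and 9716, 12443, 11419, 11887 and 10179 in the myeloid libraries, and was 11-fold lower in leukaemia (limma log2 difference -2.94, SE 0.103, adjusted p = 3.32e-11). Tlr5, the flagellin receptor gene, had 145, 131, 55.4, 56.9 and 48.2 normalised reads in the leukaemia libraries and 1381, 1451, 1264, 1584 and 1527 in myeloid libraries, a 16.5-fold difference and the highest ratio of the tested receptors of this family. Leukaemia replicates 1 and 2 held more Tlr5 than the other three leukaemia libraries, and all of them lay far below the myeloid libraries.

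Tlr4, which detects bacterial lipopolysaccharide, had 556, 548, 582, 474 and 489 normalised reads in the leukaemia libraries and 1578, 2436, 2815, 2522 and 2556 in myeloid libraries, and was 4.5-fold lower in leukaemia (limma log2 difference -1.50, SE 0.105, adjusted p = 1.73e-08). Myeloid replicate 1 was the lowest of its group for Tlr4 and still lay above all leukaemia libraries. The endosomal RNA receptor genes Tlr7 (3.85-fold) and Tlr8 (2.73-fold) were lower in leukaemia by smaller factors, and Tlr6, whose product pairs with TLR2, was 2.6-fold lower. Tlr7 had 2581, 1304, 2845, 1379 and 2376 normalised reads in myeloid replicates 1 to 5, with replicates 2 and 4 the lowest. Without these 2 libraries its log2 difference was -1.60, against -1.31 with them.

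**Figure D2:**
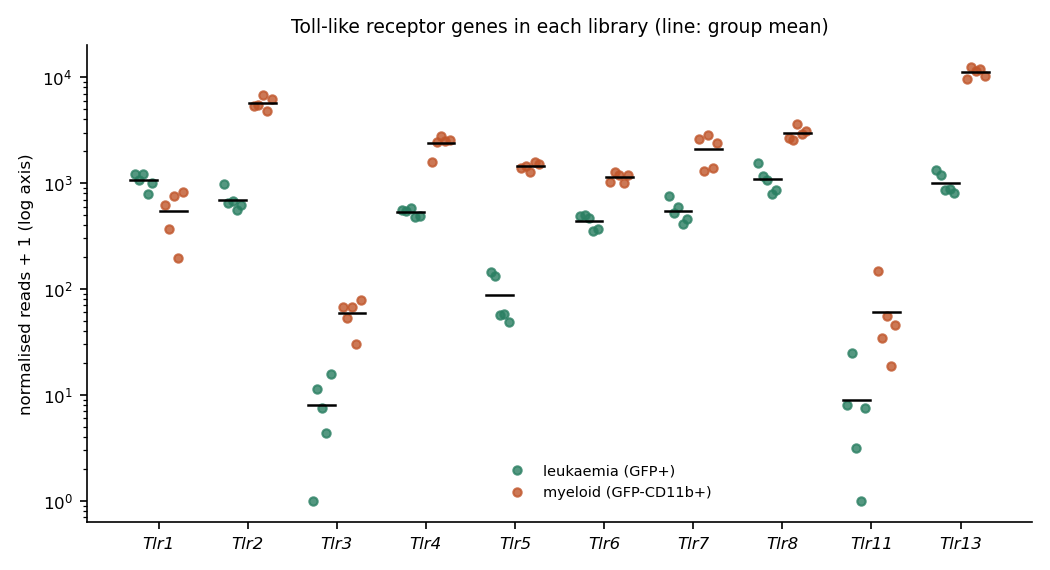
Normalised reads plus 1, on a log axis, of the 10 Toll-like receptor genes with a row, in each of 5 leukaemia and 5 myeloid libraries, with black lines at the group means. Tlr1 is the gene whose leukaemia libraries lie mostly above the myeloid ones, and Tlr3 and Tlr11 lie below the filter.

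Tlr1, the other partner of TLR2, went the opposite way. It had 1223, 1073, 1219, 792 and 1005 normalised reads in leukaemia replicates 1 to 5 and 616, 365, 749.7, 194 and 821 in myeloid replicates 1 to 5, and was 1.93-fold higher in leukaemia (limma log2 difference 0.65, SE 0.174, adjusted p = 0.00304). The groups overlapped, since leukaemia replicate 4 lay below myeloid replicate 5, and myeloid replicates 2 and 4 were the lowest. Without those 2 libraries the log2 difference of Tlr1 was 0.35 (adjusted p = 0.00415), so its size rested in part on them.

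The RNA of Tlr2 and its partner genes had another composition in each sorted population, and receptor protein was not measured. TLR2 binds triacylated lipopeptides together with TLR1 and diacylated ones together with TLR6. Per kilobase of exon, Tlr1 was above Tlr6 in every leukaemia library, with a ratio of 2.4 to 3.04, and below it in every myeloid library, with a ratio of 0.215 to 0.764. Of the reads per kilobase of Tlr1, Tlr2 and Tlr6 together, Tlr2 took 34.5% ± 3.18 in the leukaemia libraries and 80.4% ± 1.63 in the myeloid libraries (SD, n = 5 each). Tlr1 took 47.8% ± 2.69 and 6.68% ± 2.65. Shares within a library do not depend on the scaling between libraries, and none of the ranges of Tlr1 and Tlr2 overlapped between the groups.

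Over the whole family, leukaemia cells had Tlr1 (317 ± 53.2 normalised reads per kilobase) and Tlr8 (303 ± 81.5) at the top, and these means did not differ beyond their spread. Tlr13 (234 ± 53.5) and Tlr2 (231 ± 53.0) followed, equally close to each other, and then Tlr7, Tlr6, Tlr4 and Tlr5. In myeloid cells the order was Tlr13 (2586 ± 267 normalised reads per kilobase), Tlr2 (1903 ± 256), Tlr8 (827 ± 117), Tlr7 and Tlr4, the last 2 within their spread of each other, with Tlr6, Tlr5 and Tlr1 behind them. The share of Tlr13 in the family's reads per kilobase was 13.6% to 18% over the leukaemia libraries and 32.7% to 41.7% over the myeloid libraries. The share of Tlr4 was 5.36% to 7.48% and 4.36% to 6.86%, ranges that overlapped.

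The 2 co-receptor genes of lipopolysaccharide recognition were low in leukaemia. Cd14, which hands lipopolysaccharide to the receptor complex, had 324, 53.2, 153, 89.1 and 143 normalised reads in leukaemia replicates 1 to 5 and 2311, 769, 2286, 655 and 2014 in myeloid replicates 1 to 5. It was 10.5-fold lower in leukaemia (limma log2 difference -1.80, SE 0.26, adjusted p = 2.08e-05), and without myeloid replicates 2 and 4 its log2 difference was -2.27. The spread was wide in both groups: leukaemia replicate 1 held the most Cd14 and replicate 2 the least of the leukaemia libraries, and myeloid replicates 2 and 4 the least of the myeloid ones. Ly96, the gene of the TLR4 partner MD-2, did not pass the filter on low values, with 47.1 ± 11.2 normalised reads in the leukaemia libraries and 185 ± 50.9 in myeloid cells, and its groups did not overlap.

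Of the adaptor and kinase genes of the Toll-like receptor route, 8 of 9 tested were lower in leukaemia and Irak1 was higher. Myd88, the adaptor shared by most of these receptors, had 1952, 2027, 1693, 1745 and 1869 normalised reads in the leukaemia libraries and 6051, 6649.8, 7572, 5804 and 7177 in myeloid libraries. It was 3.58-fold lower in leukaemia with no overlap (limma log2 difference -1.58, SE 0.0755, adjusted p = 4.79e-10). Tirap, the sorting adaptor that brings MyD88 to TLR2 and TLR4, was 4.79-fold lower, with 980.5 ± 49.4 normalised reads in the leukaemia libraries and 3450.1, 5281, 4430.4, 5923 and 4392 in myeloid replicates 1 to 5. By contrast, Ticam1 and Ticam2, the adaptors of the interferon branch, and Traf6, the ubiquitin ligase downstream of the IRAK kinases, were lower by 1.51-fold, 1.38-fold and 1.25-fold with the authors' size factors. Under equal-sum scaling, their log2 folds were 0.046, 0.19 and 0.32, and Traf6 passed as higher there, so the direction of these 3 genes depended on the scaling.

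Irak1, a kinase of the signalling complex, had 4182, 4266, 4277, 4492 and 4431 normalised reads in leukaemia replicates 1 to 5 and 2767, 2821, 2740.2, 3121 and 3148 in myeloid replicates 1 to 5. Every leukaemia library lay above every myeloid library, and Irak1 was 1.48-fold higher in leukaemia (limma log2 difference 0.49, SE 0.0548, adjusted p = 1.62e-06). The other three tested kinases of the family were lower. Irak2 was 2.93-fold lower, Irak4, the kinase that starts the cascade, was 1.96-fold lower, and Irak3, which encodes the inhibitory family member IRAK-M, was 2.9-fold lower. Irak3 had 1252, 1276, 1307, 1330.3 and 1406 normalised reads in leukaemia replicates 1 to 5 and 3599, 4027, 3448, 4307 and 3657 in myeloid replicates 1 to 5, and Irak2 had 830.4, 802, 787, 902 and 855 and then 2723, 2382, 2279, 2618 and 2229.8, both with no overlap. Irak1 made up 49.9% ± 0.294 of the reads per kilobase of Irak1 to Irak4 in the leukaemia libraries and 21% ± 1.25 in the myeloid libraries (SD, n = 5 each). Irak3 made up 19.4% ± 0.513 and 35.1% ± 1.29. In leukaemia Irak1 was therefore the member with the highest level per kilobase, and in myeloid cells Irak3 was. The ratio of Irak1 to Irak4 per kilobase was 2.32 to 2.49 over the leukaemia libraries and 0.766 to 0.937 over the myeloid libraries.

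**Figure D3:**
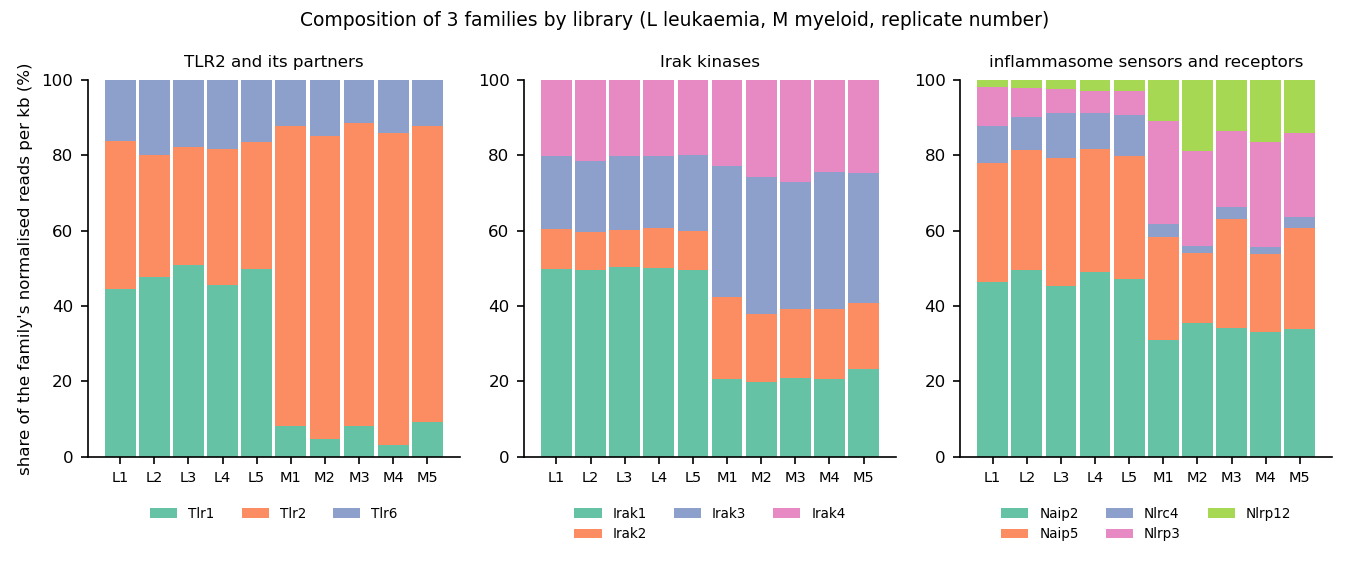
Share of normalised reads per kilobase of exon, in percent, for TLR2 and its partner receptors, for the 4 IRAK genes and for 5 inflammasome-related sensor genes, in each leukaemia (L) and myeloid (M) library. Tlr1, Tlr6, Irak1, Naip2, Naip5 and Nlrc4 take larger shares in all leukaemia libraries than in any myeloid library. Tlr2, Irak2, Irak3, Irak4, Nlrp3 and Nlrp12 take smaller ones.

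The C-type lectin genes held the widest range of differences. Of 14 tested members, Card9 included, 12 were lower in leukaemia and 2 higher. Clec5a, whose product activates myeloid cells through the adaptor DAP12, had 1098, 881, 876, 672 and 791 normalised reads in the leukaemia libraries and 10403, 14186, 14927, 14818 and 13473 in myeloid libraries, and was 15.7-fold lower (limma log2 difference -3.35, SE 0.105, adjusted p = 1.33e-11). Clec4d, which encodes the mycobacterial glycolipid receptor MCL, had 145, 106, 125, 108 and 110.4 normalised reads in the leukaemia libraries and 2915, 7879.99, 4171, 7422 and 4261 in myeloid libraries, a 44.8-fold difference (limma log2 difference -3.35, SE 0.2, adjusted p = 3.8e-09; -2.98 without myeloid replicates 2 and 4). Clec4e, the gene of its partner Mincle, was 7.9-fold lower, with 899, 821, 921, 770.1 and 917 in the leukaemia against 4683, 8829, 7872, 5579 and 7227 normalised reads in the myeloid libraries. For these 3 genes every myeloid library exceeded every leukaemia library several-fold, while the myeloid libraries themselves ranged widely for Clec4d.

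Clec7a, which encodes the fungal beta-glucan receptor Dectin-1, had 5369, 3945, 3385, 2867 and 3050.2 normalised reads in the leukaemia libraries and 12531, 10528, 10882, 9049 and 9656 in myeloid libraries, and was 2.83-fold lower. Leukaemia replicate 1 was the highest of its group for this gene. Clec4a2, the gene of an inhibitory receptor of myeloid cells, was 3.41-fold lower (3822 ± 646 against 13022 ± 2418 normalised reads). Clec10a, a galactose-binding lectin gene of macrophages and dendritic cells, was 6.02-fold lower, and its myeloid libraries held 918, 239.9, 549, 298 and 578 normalised reads. Clec2d, which encodes a ligand of an inhibitory natural killer cell receptor, was 1.82-fold lower and lost its call under equal-sum scaling (log2 fold -0.22, adjusted p = 0.0879). Clec16a, a gene of the autophagy route that shares the name but is not a known microbial receptor, was 1.5-fold lower, and Card9, the adaptor of Syk-coupled lectins, was 1.25-fold lower. Under equal-sum scaling, Clec16a had a log2 fold of 0.072 (adjusted p = 0.451) and Card9 one of 0.32 (adjusted p = 0.00294), so neither direction held.

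Clec11a and Clec12a were the lectin genes called higher in leukaemia. Clec11a encodes a secreted growth factor of haematopoietic and bone progenitors and is not a known pattern recognition receptor. It had 1587, 1847, 1466, 1904 and 1795 normalised reads in leukaemia replicates 1 to 5 and 14.0, 18.9, 12.2, 35.3 and 5.44 in myeloid replicates 1 to 5, and was 100-fold higher (limma log2 difference 2.62, SE 0.072, adjusted p = 5.5e-12). Clec12a encodes an inhibitory receptor for uric acid crystals that is also known from human acute myeloid leukaemia cells. It had 19689.6, 20692, 20588, 25004 and 21859.9 normalised reads in the leukaemia libraries and 15845, 18291, 16565, 16268 and 15104 in myeloid libraries, and was 1.31-fold higher with no overlap (limma log2 difference 0.38, SE 0.0799, adjusted p = 0.000528). Per kilobase it was the highest of all 61 members in leukaemia, at 3901 ± 375 normalised reads, against 2969 ± 214 in myeloid cells. The ratio of Clec12a to Clec7a per kilobase was 1.75 to 4.16 over the leukaemia libraries and 0.603 to 0.858 over the myeloid libraries.

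The genes of the Clec4 cluster did not all share a pattern among the myeloid libraries: Clec4a1, Clec4a3 and Clec4b1 at its start were lowest in replicates 2 and 4, and Clec4d towards its end was highest there. In RefSeq's order on chromosome 6 the cluster runs Clec4a1, Clec4a3, Clec4a4, Clec4b1, Clec4a2, Clec4b2, Clec4n, Clec4d and Clec4e, and 8 of these 9 genes had a row. Clec4a1, at the start of the cluster, had 568, 454, 362, 273 and 289 normalised reads in the leukaemia libraries and 4068, 624, 3457, 762 and 2943 in myeloid replicates 1 to 5. Clec4a3 had 837, 579.9, 598, 478 and 427 in the leukaemia against 4531, 767, 4473, 747 and 3408 in the myeloid libraries. For both genes myeloid replicates 2 and 4 lay near the leukaemia libraries and the other three far above. Clec4n, which encodes the fungal mannan receptor Dectin-2, had 35.6, 8.12, 38.8, 23.8 and 26.9 in the leukaemia against 489.7, 57.9, 347, 61.8 and 345 normalised reads in the myeloid libraries, with the same libraries low. Its neighbour Clec4d was highest in those very libraries, and so was Clec4a2, between Clec4b1 and Clec4b2. Clec4b2 stood 2.42-fold lower in leukaemia cells (126 ± 35.6 against 305 ± 86.4 normalised reads). It had 206, 333.3, 333.4, 420 and 232 in myeloid replicates 1 to 5, with replicate 4 highest and replicate 2 level with replicate 3. The ratio of Clec4d to Clec4n per kilobase ranged from 5.29 to 121 over the myeloid libraries. Clec4a1 was 6.09-fold and Clec4a3 4.77-fold lower in leukaemia, with log2 differences of -1.52 and -1.37 that became -2.22 and -2.12 without myeloid replicates 2 and 4. The groups of Clec4a3 overlapped, and it lost its call under equal-sum scaling (log2 fold -1.18, adjusted p = 0.0993). Genes of this cluster are related in sequence, the read counter and its treatment of shared reads are not given in the sources used here, and reads could be split between copies.

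**Figure D4:**
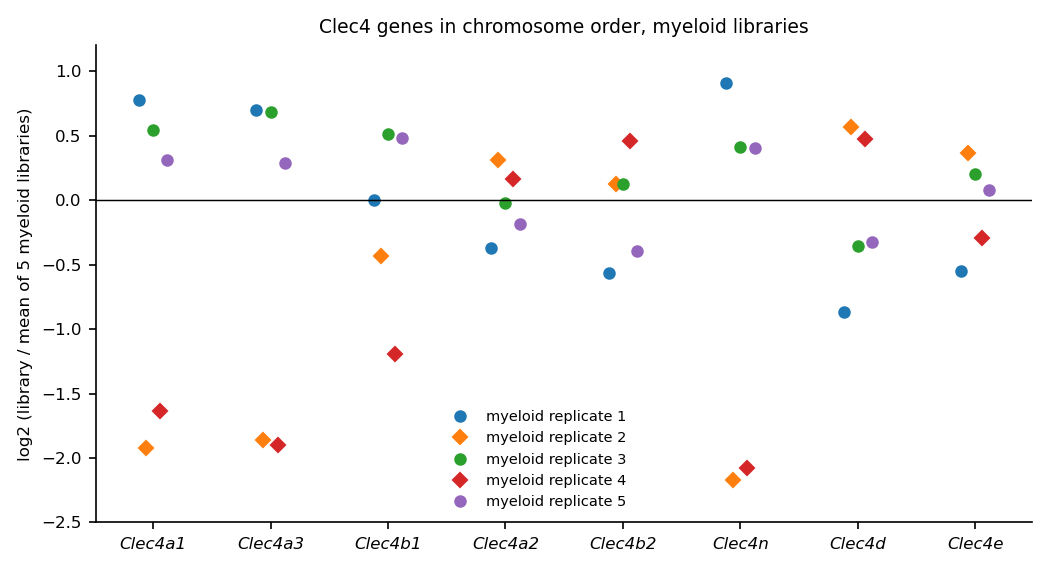
Log2 ratio of each myeloid library to the mean of the 5 myeloid libraries, for the 8 Clec4 genes with a row, in their order on the chromosome. Diamonds are replicates 2 and 4, which lie lowest for Clec4a1, Clec4a3, Clec4b1 and Clec4n and highest for Clec4a2 and Clec4d.

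The bases before the annotated starts of members that went different ways are printed here, so that genes from both ends of the Clec4 cluster, among them Clec4a1 and Clec4d with opposite patterns, can be set beside Nlrp12 and Clec11a. Each stretch holds the 160 bases before the start in RefSeq (GRCm38.p6), 5′ to 3′ on the gene's strand. The capitals mark matches to the C/EBP motif TTGCNNAA on either strand, a motif of factors of granulocyte maturation, and no match to the other 3 motifs searched fell in these stretches.
Clec4a1, chr6:122921688-122921847, plus strand: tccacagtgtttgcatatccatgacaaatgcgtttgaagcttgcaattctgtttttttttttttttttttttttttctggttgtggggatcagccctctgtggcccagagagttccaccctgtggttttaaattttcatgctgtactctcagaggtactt
Clec4a3, chr6:122952355-122952514, plus strand: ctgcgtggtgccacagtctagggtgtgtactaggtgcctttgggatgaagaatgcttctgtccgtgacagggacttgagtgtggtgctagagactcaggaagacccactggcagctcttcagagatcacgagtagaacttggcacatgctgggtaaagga
Clec4d, chr6:123261947-123262106, plus strand: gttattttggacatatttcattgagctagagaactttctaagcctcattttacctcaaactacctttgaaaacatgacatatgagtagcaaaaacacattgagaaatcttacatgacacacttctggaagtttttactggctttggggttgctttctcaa
Clec4e, chr6:123289872-123290031, minus strand: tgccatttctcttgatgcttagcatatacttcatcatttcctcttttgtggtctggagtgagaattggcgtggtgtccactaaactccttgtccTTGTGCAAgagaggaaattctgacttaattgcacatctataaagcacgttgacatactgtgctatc
Nlrp12, chr7:3249741-3249900, minus strand: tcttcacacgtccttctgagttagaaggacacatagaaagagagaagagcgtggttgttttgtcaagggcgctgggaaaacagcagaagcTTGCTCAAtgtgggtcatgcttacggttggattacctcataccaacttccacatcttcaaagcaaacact
Clec11a, chr7:44306960-44307119, minus strand: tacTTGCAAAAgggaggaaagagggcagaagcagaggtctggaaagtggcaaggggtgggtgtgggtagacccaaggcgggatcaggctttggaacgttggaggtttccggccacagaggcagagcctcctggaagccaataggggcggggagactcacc
A C/EBP match stood in the stretch of Clec4e and of Nlrp12, which were lower in leukaemia, and in that of Clec11a, which was higher. None stood in those of Clec4a1, Clec4a3 and Clec4d.

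Promoter windows of 250 bases before to 50 bases after the start were at hand for 52 of the 61 members. The C/EBP motif matched in 14 of these genes (26.9%), against 12.2% of all 27025 genes with a window. The core motif of PU.1, GAGGAAGT, matched in 4 (7.69% against 3.69%), which were Nlrp1b, Pycard, Tlr1 and Tlr11. The interferon-stimulated element matched in 6 (11.5% against 3.99%), Myd88 and Tlr6 among them. The NF-kB consensus matched in 7 (13.5% against 9.55%), which were Casp4, Clec1b, Irak1, Naip5, Nlrp3, Tlr2 and Tlr3. Of these, Irak1 was called higher in leukaemia. The members all had a row in the deposited table, and the shares over all genes with a row were not computed. Both strands were searched for all motifs, matches may overlap, and a match is a string of letters and not a shown binding site.

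Of the NOD-like receptor genes, 7 of 9 tested were lower in leukaemia, Nlrc4 was higher and Nlrp1b was not called. Nlrp12, a regulator of inflammation in neutrophils, had 287, 295, 351, 473 and 399 normalised reads in the leukaemia libraries and 2911, 4852, 3499.6, 4811 and 3603 in myeloid libraries, and was 10.9-fold lower (limma log2 difference -2.40, SE 0.12, adjusted p = 7.08e-10). Nlrp3, the sensor of the inflammasome that responds to membrane damage and crystals, had 909, 598, 488, 483 and 497 in the leukaemia against 3912, 3462, 2838, 4385 and 3091 normalised reads in the myeloid libraries, and was 5.94-fold lower (limma log2 difference -1.90, SE 0.122, adjusted p = 7.19e-09). Leukaemia replicate 1 held more Nlrp3 than the other leukaemia libraries and still less than any myeloid library. Nod1 (4.14-fold) and Nod2 (5.74-fold), which detect fragments of bacterial cell wall, and Nlrx1 (3.41-fold), whose product sits at mitochondria, were lower as well, each with no overlap. Nod1 had 823, 910.04, 746, 615 and 688 normalised reads in leukaemia replicates 1 to 5 and 3843, 3035, 2972, 2567 and 3228 in myeloid replicates 1 to 5.

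The NAIP and NLRC4 genes behaved differently from Nlrp3. NAIP proteins bind flagellin or parts of bacterial secretion systems and activate NLRC4. Nlrc4 had 1004, 806, 1074, 931 and 963 normalised reads in leukaemia replicates 1 to 5 and 571, 319, 503, 361 and 457 in myeloid replicates 1 to 5, and was 2.16-fold higher in leukaemia with no overlap (limma log2 difference 0.67, SE 0.0839, adjusted p = 5.14e-06). Naip2 (1.26-fold) and Naip5 (1.34-fold) were slightly lower with the authors' size factors. Under equal-sum scaling their log2 folds were 0.30 and 0.24, above 0, so their direction was not fixed, and Naip genes are near-identical copies whose reads may be split. The ratio of Nlrc4 to Nlrp3 per kilobase was 0.932 to 1.86 over the leukaemia libraries and 0.0694 to 0.15 over the myeloid libraries. Nlrp1b, a sensor of anthrax lethal toxin, had 335, 183, 236, 84.9 and 156 in the leukaemia against 645, 128, 532, 145 and 470.1 normalised reads in the myeloid libraries and overlapping groups (limma log2 difference -0.36, adjusted p = 0.0974). Myeloid replicates 2 and 4 were at the level of the leukaemia libraries, and without them the log2 difference was -0.72 (adjusted p = 0.000212). Leaving out replicate 2 alone or replicate 4 alone also made Nlrp1b pass as lower (log2 difference -0.50 and -0.49).

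All 3 core inflammasome genes with a row were called lower, with log2 differences from -1.16 for Casp4 to -0.20 for Pycard. Pycard, the gene of the adaptor ASC, had 1844, 2359, 1741, 1954 and 1786 normalised reads in the leukaemia libraries and 2123, 2692, 2439.9, 2169 and 2086 in myeloid libraries, and its groups overlapped. It was 1.19-fold lower (limma log2 difference -0.20, SE 0.0799, adjusted p = 0.0271), a call that was lost without any one of 5 single libraries (leukaemia replicate 1, 3 or 5, or myeloid replicate 2 or 3, adjusted p = 0.0545 to 0.0688) and turned to a higher value under equal-sum scaling (log2 fold 0.39, adjusted p = 0.0015). Casp1, the protease that matures interleukin-1, had 1370.2, 1389, 1240.4, 1397 and 1252 in the leukaemia against 2141, 2767, 2525, 1917 and 2438 normalised reads in the myeloid libraries, and was 1.77-fold lower with no overlap. Its log2 fold under equal-sum scaling was -0.18 (adjusted p = 0.123). Casp4, the cytosolic lipopolysaccharide sensor gene, had 492, 362, 532, 318 and 371 in the leukaemia against 1256, 1474, 1915, 989 and 1836 normalised reads in the myeloid libraries, was 3.6-fold lower (limma log2 difference -1.16, SE 0.126, adjusted p = 1.34e-06) and stayed called under that scaling (log2 fold -1.17).

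Fpr1 and Fpr2 had the lowest log2 differences of the tested members. Fpr2 had 204, 179, 224, 133 and 139 normalised reads in the leukaemia libraries and 14272, 29491, 22399.7, 20878 and 19596 in myeloid libraries, and was 121-fold lower (limma log2 difference -5.11, SE 0.144, adjusted p = 6.18e-12). Fpr1 had 96.7, 31.0, 106, 34.8 and 80.7 in the leukaemia against 8562, 12829.6, 9686, 12002 and 9517 normalised reads in the myeloid libraries, and was 151-fold lower (limma log2 difference -4.56, SE 0.113, adjusted p = 2.78e-12). Per kilobase they were the highest members in myeloid cells, Fpr2 at 16456 ± 4239.9 and Fpr1 at 7945 ± 1365 normalised reads. Fpr3 had 2 reads over all leukaemia libraries and 7, 30.7, 23.2, 13.9 and 17.7 normalised reads in the myeloid libraries.

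The 15 members below the filter are described without a test. Groups were apart for 14 of them, 11 with myeloid above leukaemia and 3 the other way, and Tlr11 overlapped. Groups were also apart for 86.8% of all genes tested, and the share over all genes below the filter was not computed. Clec18a had 356, 276, 333, 322 and 337 normalised reads in the leukaemia libraries and no read in any myeloid library, at least 438-fold higher against a floor of 3 reads over the myeloid group. Nlrp10 had 256, 211, 198, 196 and 212 in the leukaemia against 67.6, 8.27, 54.9, 0 and 34.0 normalised reads in the myeloid libraries, and Irak1bp1, which encodes a protein that binds IRAK1, had 59.5, 85.0, 87.0, 159 and 124 in the leukaemia against 0, 3.55, 4.88, 12.6 and 0 in the myeloid libraries. These 3 genes were higher in every leukaemia library than in any myeloid library. Clec9a, a receptor for dead cells known from dendritic cells, had 15.1 ± 6.18 normalised reads in the leukaemia libraries and 222 ± 68.0 in myeloid cells, and Clec1b, the podoplanin receptor known from platelets, had 19.7 ± 5.32 and 147 ± 32.7. Tlr3 (7.01 ± 5.81 against 58.2 ± 18.6), Nlrc3 (47.5 ± 12.6 against 128 ± 32.6) and Clec4b1 (10.7 ± 7.11 against 78.0 ± 33.1) were scarce in both groups. Clec12b (7.61 ± 4.03 against 45.7 ± 11.9), Clec4g (2.12 ± 1.97 against 23.5 ± 5.02), Clec1a (4.23 ± 4.87 against 26.3 ± 9.22) and Tlr11 (7.85 ± 9.3 against 59.7 ± 51.3) had few reads as well.

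Members differed among the myeloid libraries in opposite ways. Replicates 2 and 4 were the lowest of the 5 myeloid libraries for 10 of 46 tested members (21.7%), against 13% of all genes tested. These were Cd14, Clec10a, Clec4a1, Clec4a3, Naip5, Nlrc4, Nlrp1b, Ticam1, Tlr1 and Tlr7. They were the highest for 11 (23.9%), against 32.1% of all genes tested, namely Clec11a, Clec2d, Clec4a2, Clec4d, Fpr1, Irak3, Irak4, Naip2, Nlrp12, Tirap and Tlr13. Without both libraries the log2 difference was -1.25 for Clec10a (with them -0.98), 0.55 for Nlrc4 (with them 0.67), -0.51 for Naip5 (with them -0.35) and -0.44 for Ticam1 (with them -0.36). Of the members highest there, Nlrp12 was then at -2.21 (with them -2.40), Tirap at -1.62 (with them -1.79) and Fpr1 at -4.40 (with them -4.56). Clec4a2 was at -1.46 (with them -1.63), and Clec11a at 2.69 (with them 2.62). The 6 monocyte markers with a row, of 7, did not sum to less in these libraries, and Lyz2 made up most of that sum (698270.1, 705585, 642985, 790842 and 642670.2 normalised reads in replicates 1 to 5). Among them Csf1r (24603, 7888, 19241, 9878 and 18338), Ccr2 (32434, 16814, 43280.4, 18189 and 36025) and Cx3cr1 (8815, 959.7, 5110.5, 2283 and 4578) were lowest in replicates 2 and 4. The other markers did not follow: F13a1 (24874.5, 27249, 31078, 28431 and 29702) was lowest in replicate 1. Fn1 (71335, 36430.6, 64382, 72187 and 68539.5) was lowest in replicate 2 and highest in replicate 4, and Lyz2 was highest in replicates 2 and 4. The 3 macrophage markers with a row, of 7, summed to 3216, 1024, 2608, 1162 and 2349, and C1qa was at 0 in replicate 4. The 7 neutrophil markers summed to 1381485, 2399949, 1469609.5, 1836501 and 1498504. The part of other cell types in these values was not tested.

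The spread of the members among libraries of 1 group was wider than that of the tested genes as a whole, with a median SD of the deposited values of 0.177 among myeloid libraries, against 0.128 over all genes tested, and of 0.123 against 0.0879 among leukaemia libraries. Among the leukaemia libraries replicate 1 was the highest for 17 of 46 members (37.0%), against 25.3% of all genes tested, and replicate 4 the lowest for 18 (39.1%), against 19.5%. Replicate 1 was highest for Tlr2, Tlr7, Tlr8, Tlr13, Cd14, Clec7a, Clec5a, Nlrp3 and Nlrp1b among others. The monocyte markers summed to 140489, 110418, 87316, 85548 and 87404 normalised reads in leukaemia replicates 1 to 5, with replicate 1 highest and replicate 4 lowest. Their part in the order of the members was not tested.

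Equal-sum scaling raised the median log2 fold of all tested genes by 0.64, from -0.21 to 0.43 (limma voom on recovered reads). Under this scaling 29 members were called lower, against 27.6% of all genes tested, and 9 higher, against 57.2%. Of all genes called, 67.4% were then higher, against 49.2% in the test of deposited values. In the voom fits the members' median less that of all genes tested was -1.44 with the authors' size factors and -1.45 with equal sums. The receptors named above as several-fold lower kept their direction, and 8 of the 46 members changed sign: Card9, Clec16a, Naip2, Naip5, Pycard, Ticam1, Ticam2 and Traf6.

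Genes around these receptors were read from fixed lists that hold no members. Their counts are to be read beside all genes tested, of which 50.7% were called lower, with a median log2 difference of -0.16. Under equal-sum scaling the median log2 fold of all genes tested was 0.43, and 57.2% of them were called higher. In the NF-kB and TAK1 list all 17 tested genes, of 19, were below the myeloid level with the authors' size factors (median log2 difference -0.81), and 6 of them lay above 0 under equal-sum scaling. Nfkbiz, which encodes an inducible nuclear cofactor of NF-kB, was 18.7-fold lower and Nfkbid 4.87-fold lower, whereas Chuk (1.21-fold) and Nfkb1 (1.22-fold) were lower by little and passed as higher under that scaling (log2 folds 0.37 and 0.35). Without myeloid replicates 2 and 4 the log2 difference of Nfkbiz was -3.54, against -2.97 with them. In the list of brakes on this signalling, 14 of 15 tested genes, of 20, were lower (median -1.03), 4 of which lay above 0 under equal-sum scaling. Socs3 was 39.8-fold lower (log2 difference -2.37, and -2.78 without those libraries) and Peli2 6.78-fold lower, and Sigirr, a receptor that dampens Toll-like receptor signals, stood 2.22-fold higher in leukaemia (533 ± 55.9 against 239.95 ± 64.1 normalised reads). The C-type lectin signalling list had all 12 genes lower (median -1.09) with the authors' size factors. Ptpn6 and Inpp5d are also in the list of brakes and are counted in both lists. Fcer1g, the signalling chain of Mincle and Dectin-2 (3.8-fold), and Syk (2.99-fold) had the lowest log2 differences. Under equal-sum scaling 2 of the 12 lay above 0, and Vav1, which encodes an exchange factor downstream of Syk, passed as higher (log2 fold 0.22, adjusted p = 0.00218).

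In the list of inflammasome partners and outputs 12 of 16 tested genes, of 23, were lower and 4 higher (median -0.83), and 2 of those 12 lay above 0 under equal-sum scaling. Il1b, the gene of the main inflammasome product, had 193, 22.9, 140.2, 17.8 and 82.6 normalised reads in the leukaemia libraries and 10519, 6518, 10973, 3267 and 9651 in myeloid libraries, and was 89.6-fold lower. Its log2 difference was -4.08, and -4.51 without myeloid replicates 2 and 4, the lowest of their group. Il1rn, the gene of the interleukin-1 receptor antagonist, was 21.2-fold lower. Gbp3 (2.34-fold) and Mefv, the gene of the sensor pyrin (1.42-fold), were higher in leukaemia. In the interferon arm 11 of 13 tested genes, of 17, were lower (median -0.67), with Irf7 3.39-fold and Irf5 2.35-fold lower. Of these 11, 3 lay above 0 under equal-sum scaling, and Ikbke, which encodes a kinase of the interferon factors and is named after its values were seen, passed as higher there (log2 fold 0.29, adjusted p = 0.00335). Hsp90b1 (1.62-fold) and Cnpy3 (1.3-fold), which encode the chaperones that fold Toll-like receptors, were higher.

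The RNA sensor list had 8 of 9 tested genes, of 11, lower (median -1.04), with Oas3 (9.4-fold) and Ddx58, the gene of RIG-I (4.3-fold), among them, while Mavs, the adaptor that RIG-I acts through, was 1.58-fold higher (707 ± 39.5 against 448 ± 82.3 normalised reads). Under equal-sum scaling 2 of the 8 lay above 0. All 7 tested Pyhin genes, of 13, were lower (median -1.10). Ifi204 was 5.56-fold lower, and Mndal (1.58-fold) had a log2 fold of 0.0012 under equal-sum scaling. Members of that family are close copies and their reads may be split. In the list of soluble and scavenger recognition 7 of 9 tested genes, of 16, were lower and 1 higher (median -2.44). Lcn2 (59.8-fold) and Camp (28.7-fold), which encode granule proteins of neutrophils, were lower, and Colec12, a scavenger receptor with a collagen and a lectin domain, stood 38.6-fold higher in leukaemia (713 ± 148 against 18.5 ± 7.56 normalised reads).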

How the data were processed

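RNA was sequenced from sorted marrow cells, 5 GFP+ and 5 GFP-CD11b+ libraries, grouped by sample title. The authors deposited 1 table, variance-stabilised, in log2 units. HISAT2 (2.0.4 and 2.2.1) and DESeq2 are named in the submitters' processing notes, and the build, annotation, counter and strand setting are not given in the sources used here. The lowest value, 8.1823, was shared by all libraries. Inverting the parametric variance-stabilising function made 100% of values of up to 300 reads whole within 0.1 read in each library, which gave reads and size factors. The form of the function was assumed.

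The members and lists were chosen with earlier results of these data known. Deposited values were tested with limma 3.58.1 (R 4.3.3, trended prior, Benjamini-Hochberg over 8079 genes, two-sided), for genes whose mean lay over 1 unit above the lowest value. Log2 differences of these values understate changes of genes with few reads, and folds are ratios of mean normalised reads, ± SD over 5 libraries. The test was checked on simulated data in which most genes did not change, unlike these data, where nearly all genes tested were called. Reads per kilobase used the union of GENCODE M21 exons. Shares are given without a test, since p-values over the member list alone were not used. The recovered reads were divided by the sum of each library for equal-sum scaling. Alternatives were other scalings, filters and priors, limma voom, a replicate block and left-out libraries. Every member could be named. Values by library were to be given for members higher by at least 0.5, the 3 lowest of each role with groups apart, uncalled and central members, and other lists contribute at most the 2 highest and 2 lowest called genes.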

Additional observations from a re-analysis of the deposited data

Results flagged for a closer look

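In groups of 5 libraries, a library whose distance to its nearest neighbour exceeded 0.71 of the group's range was marked. Among 92 groups of tested members 2 were marked, where chance marks about 1 in 20. Tlr4 had 1577.6 normalised reads in myeloid replicate 1, against 2436 to 2815 in the other myeloid libraries. Clec5a had 10403 normalised reads in the same library, against 13473 to 14927 in the others.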

How the results depend on the processing

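Of the 46 tested members, 38 kept their direction under all 19 alternatives that tested them. Those that changed sign did so under equal-sum scaling, with log2 folds of 0.32 for Card9, 0.072 for Clec16a, 0.30 for Naip2, 0.24 for Naip5, 0.39 for Pycard, 0.046 for Ticam1, 0.19 for Ticam2 and 0.32 for Traf6. After quantile normalisation Card9 (0.26), Naip2 (0.23), Naip5 (0.11) and Pycard (0.054) also changed sign. The cause was not tested. Members called higher numbered 9 under equal-sum scaling and 8 with no filter on low values, which adds members, against 5. Clec4a3 lost its call under equal-sum scaling (log2 fold -1.18, adjusted p = 0.0993), and Pycard when every annotated gene counted as a test (adjusted p = 0.186). Leaving out 1 library gave 39 to 41 members lower, 5 higher, 26 or 27 lower with a log2 difference of -1 or below, and 7888 to 7959 genes called in all. Nlrp1b was called without myeloid replicate 2 (-0.50, adjusted p = 0.0203) or 4 (-0.49, adjusted p = 0.0305). With voom on recovered reads 29 members were lower with a log2 fold of -1 or below, against 26.

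Replicate numbers are shared between the groups. The correlation of the deviations of same-numbered libraries was 0.13, 0.232, 0.316, 0.29 and -0.0216 for replicates 1 to 5. Not every library correlated best with its own number. Whether same-numbered libraries are pairs is not known here, and the main test did not take them as pairs. With a replicate block 8018 genes were called, against 8062, and 41 members were lower, since Nlrp1b was then called (adjusted p = 0.0122). It changed no other member's call. Few reads limit the 15 members below the filter, and p-values cannot be read as false discovery rates over the transcriptome, since nearly all genes of the table were called.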
